A study of Mus musculus with 8 samples.

Results

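Spermatogenesis depends on a metabolic exchange between 2 groups of cells. Sertoli cells, the somatic nurse cells of the seminiferous tubule, take up glucose through facilitative glucose transporters, convert much of it to lactate and release the lactate, and spermatocytes and spermatids behind the blood-testis barrier take that lactate up as a preferred fuel. Hexoses cross the membrane through the Slc2a (GLUT) family. Lactate and pyruvate cross together with a proton through the monocarboxylate transporters of the Slc16a (MCT) family, which reach the cell surface only with an immunoglobulin-domain partner, basigin or embigin. The 8 genes described here are the hexose transporters Slc2a1, Slc2a3 and Slc2a5, the monocarboxylate transporters Slc16a1, Slc16a3 and Slc16a7, and the partners Bsg and Emb. They were chosen by name, with earlier results of these data known. All 8 were among the 17127 genes of the deposited table, and all 8 passed the minimum level for testing.

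The values are those of 7 RNA libraries of whole adult testis from males aged 4 months, each labelled as a separate sample. Wild-type mice 1 to 4 were compared with Iqch mutant mice 1, 2 and 4, which the labels give as Iqch-/- and knockout, and mutant 3 is not analysed here. The mutants were homozygous for small CRISPR-Cas9 deletions in a late exon of Iqch, a testis gene that encodes an IQ-motif protein, made in zygotes of C57BL/6 and CBA origin. The labels do not say from which of the edited lines each mouse came. Iqch RNA was at 193 to 217 CPM (reads of the gene per 1000000 reads counted) in wild-type and at 64.8 to 69.2 CPM in mutant testes, and fell by 1.63 on the log2 scale (limma FDR 1.9e-10, standard error 0.05). Each library held 32064384 to 37551057 reads on the listed genes, so that 1 read was 0.0266 to 0.0312 CPM. Genes were called at a limma FDR (Benjamini-Hochberg, over all 17126 tested genes) below 0.01, on log2(CPM + 0.1). Of all tested genes, 50.4% were called, 36.3% higher and 14.2% lower in mutants, and their median log2 fold change was 0.12. After CPM were divided by median-of-ratios size factors this median was -0.01 and 52.1% were called, 27% higher and 25.1% lower. Changes relative to the median of all genes are given below for each gene. The SD follows each mean after ±, with n = 4 for wild type and n = 3 for mutants. The p-values set a difference of group means against the variance between these samples, which limma moderates over all tested genes. The authors left out 1 mutant sample that they considered an outlier after normalization, without naming it. The mutant SDs, standard errors and overlaps given here cover only the 3 mutants analysed and may understate the spread between mutants.

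Of the 8 genes, 3 were called higher in mutants (Slc16a1, Emb and Slc2a1) and 3 lower (Slc2a3, Slc16a7 and Slc2a5), against the 36.3% and 14.2% of all genes. After scaling 2 were higher and 4 lower, against 27% and 25.1% of all genes. The mutant libraries lay above all wild-type libraries for 3 of the 8 genes and below them for 3, against 42.8% and 19.5% of all genes (62.3% either way). Slc16a3 and Bsg were not called on the deposited CPM. The 3 genes that rose were at low or middle levels in the testis and changed by 1.39-fold to 1.70-fold. The 3 that fell were among the most abundant RNAs of the testis and were at 0.813 to 0.858 of the wild-type mean.

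For 5 of the 8 genes (Slc2a1, Slc2a5, Slc16a1, Slc16a3 and Emb) the set of RefSeq promoters used here holds a window in GRCm38.p6. It runs from 250 bases before to 50 bases after the start site. Slc2a3, Slc16a7 and Bsg are absent from this set. Those of the 3 genes that rose and of Slc2a5 are shown. Of the 3 genes that fell, only Slc2a5 has a window in this set. Capitals mark matches, on either strand, to the Sp1-type motif GGGCGG, the NF-Y motif CCAAT, the core ACGTG of the hypoxia response element, the core TGACG of the cAMP response element and the promoter motif TATAAA. All 4 lie on the plus strand and read 5′ to 3′, for Slc2a1 chr4:119108495-119108794, for Slc16a1 chr3:104638414-104638713, for Emb chr13:117220323-117220622 and for Slc2a5 chr4:150119094-150119393.
Slc2a1: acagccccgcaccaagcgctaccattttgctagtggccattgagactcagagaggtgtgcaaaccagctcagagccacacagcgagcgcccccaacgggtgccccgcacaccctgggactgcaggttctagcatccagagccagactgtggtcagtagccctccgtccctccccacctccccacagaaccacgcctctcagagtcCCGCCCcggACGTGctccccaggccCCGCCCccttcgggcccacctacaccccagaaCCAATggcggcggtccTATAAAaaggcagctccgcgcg
Slc16a1: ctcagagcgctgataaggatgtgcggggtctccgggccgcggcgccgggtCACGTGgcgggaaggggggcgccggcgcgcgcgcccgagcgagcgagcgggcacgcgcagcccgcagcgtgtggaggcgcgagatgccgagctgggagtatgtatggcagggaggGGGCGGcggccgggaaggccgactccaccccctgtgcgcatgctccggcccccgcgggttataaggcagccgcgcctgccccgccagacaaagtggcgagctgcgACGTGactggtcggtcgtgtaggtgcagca
Emb: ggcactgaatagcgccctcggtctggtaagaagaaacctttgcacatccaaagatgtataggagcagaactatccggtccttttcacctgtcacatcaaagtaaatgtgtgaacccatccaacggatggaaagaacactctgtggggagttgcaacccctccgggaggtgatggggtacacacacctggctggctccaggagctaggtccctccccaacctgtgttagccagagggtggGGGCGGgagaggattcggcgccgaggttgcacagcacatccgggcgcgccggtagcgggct
Slc2a5: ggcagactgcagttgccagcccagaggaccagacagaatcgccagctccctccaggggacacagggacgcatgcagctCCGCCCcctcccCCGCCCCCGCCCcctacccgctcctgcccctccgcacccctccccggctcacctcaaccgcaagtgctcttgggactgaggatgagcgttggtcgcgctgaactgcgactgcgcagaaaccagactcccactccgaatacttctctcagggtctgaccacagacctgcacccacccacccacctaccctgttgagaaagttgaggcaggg

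All 5 listed promoters, that of Slc16a3 included, held the GGGCGG motif, which 35.7% of all 32851 listed promoters of this length hold. The hypoxia response core was in Slc2a1 (1 match), Slc16a1 (3 matches, of which 2 are the overlapping strands of CACGTG) and Slc16a3 (2 matches), against 19.6% of all promoters. It was not in these windows of Emb or Slc2a5. The cAMP response core was in Slc16a3, where it overlaps an ACGTG, against 20.8% of all promoters. The CCAAT motif (37.4% of all) and the TATAAA motif (13.6% of all) were in Slc2a1. The number of CG dinucleotides was 42 in Slc16a1 and 36 in Slc16a3, against a median of 7 over all promoters, and 18 in Slc2a1, 15 in Slc2a5 and 14 in Emb. The 5 promoters held 57.7% to 73.7% G and C, against a median of 52.7% over all promoters. These are matches of letters only, and their bearing on the changes was not tested.

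**Figure D1:**
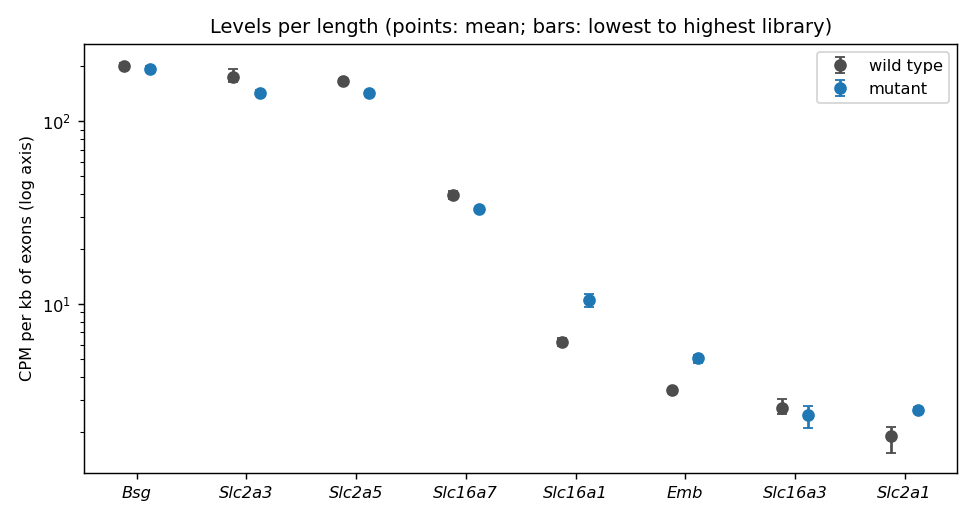
Mean level of each gene in CPM per kilobase of its exons (log axis), ordered by the wild-type mean, with a grey point for the mean of the 4 wild-type and a blue point for that of the 3 mutant libraries, and bars from the lowest to the highest library. Bsg, Slc2a3 and Slc2a5 lay above 138 CPM per kilobase in every library and Slc16a3 and Slc2a1 at or below 3.04.

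Levels were compared between genes per kilobase of exons in GENCODE M39. In wild-type testes the order was Bsg (202 ± 6.12 CPM per kilobase), Slc2a3 (175 ± 12.2), Slc2a5 (167 ± 3.76), Slc16a7 (39.7 ± 1.93), Slc16a1 (6.21 ± 0.33), Emb (3.36 ± 0.05), Slc16a3 (2.68 ± 0.24) and Slc2a1 (1.89 ± 0.26). Neighbours in this order did not overlap between libraries, except Slc2a3 and Slc2a5. In mutants Slc2a5 (143 ± 2.60) and Slc2a3 (142 ± 5.42) overlapped again, as did Slc2a1 (2.63 ± 0.08) and Slc16a3 (2.48 ± 0.35). With the length of the longest transcript the wild-type order was the same, and in mutants Slc16a3 (3.00 ± 0.42) stood above Slc2a1 (2.77 ± 0.08), again with overlap. By CPM alone, Slc2a3 ranked 33rd of the 17127 genes in wild-type testes, Slc2a5 123rd, Slc16a7 186th and Bsg 204th, whereas Slc2a1 ranked 11196th.

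**Figure D2:**
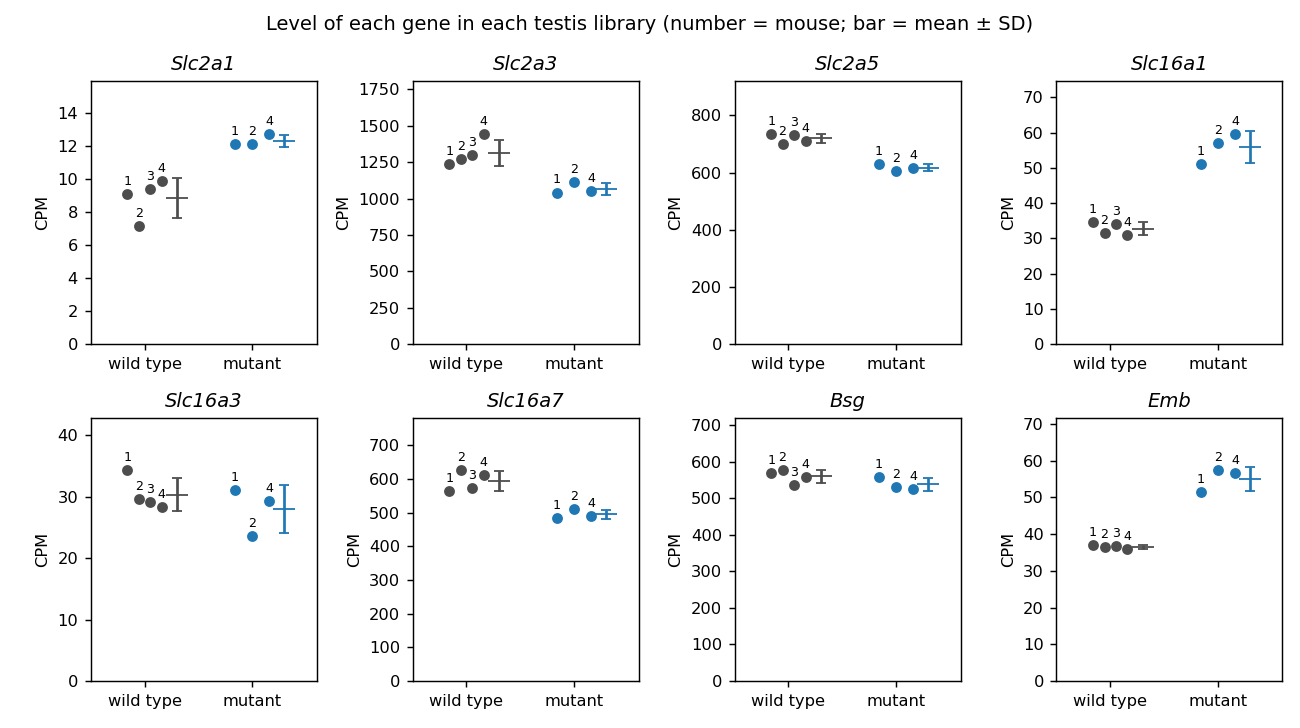
CPM of each of the 8 genes in each library, with axes from 0, grey points for wild-type and blue points for mutant samples, the number of the sample above its point, and bars for the mean ± SD. The mutant points lie above all wild-type points for Slc2a1, Slc16a1 and Emb, and below them for Slc2a3, Slc2a5 and Slc16a7, whereas for Slc16a3 and Bsg the groups overlap.

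Slc2a1 encodes GLUT1, the widespread basal glucose transporter, which in the tubule serves Sertoli cells (ENSMUSG00000028645, GRCm39 chr4:118965908-118996365, plus strand). It was at 9.07, 7.14, 9.37 and 9.91 CPM in wild type 1 to 4 and at 12.1, 12.1 and 12.7 CPM in mutants 1, 2 and 4. All mutants lay above all wild-type mice, and wild type 2 was the lowest of the 7. Slc2a1 rose by 0.48 on the log2 scale (limma FDR 0.002, standard error 0.11), or 0.36 above the median of all genes. After scaling by size factors it was 0.35 and no longer called (limma FDR 0.014).

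Slc2a3 encodes GLUT3, a high-affinity glucose transporter found in neurons, male germ cells and sperm (ENSMUSG00000003153, chr6:122704768-122778599, minus strand). It was at 1239, 1271, 1299 and 1446 CPM in the wild-type and at 1042, 1115 and 1049 CPM in the mutant libraries. The groups did not overlap, and wild type 4 was the highest library. Slc2a3 changed by -0.30 on the log2 scale (limma FDR 0.000284, standard error 0.05), -0.42 relative to the median of all genes and -0.43 after scaling.

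Slc2a5 encodes GLUT5, a fructose transporter that late germ cells also carry (ENSMUSG00000028976, chr4:150196268-150228931, plus strand). Its wild-type values were 736, 701, 730 and 711 CPM and its mutant values 629, 607 and 617 CPM. The spread within each genotype was small and the groups did not overlap. It changed by -0.22 (standard error 0.04, limma FDR 0.000158), by -0.34 relative to all genes and by -0.36 after scaling.

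Slc16a1 encodes MCT1, which carries lactate in either direction and is found in Sertoli and germ cells (ENSMUSG00000032902, chr3:104545811-104565780, plus strand). It was at 34.5, 31.5, 34.1 and 31.1 CPM in wild-type and at 51.0, 57.0 and 59.7 CPM in mutant testes. Of the 8 genes it had the largest change, 0.77 on the log2 scale (limma FDR 7.0e-07, standard error 0.07), 0.65 above the median of all genes and 0.63 after scaling. It stood at percentile 85.9 of the log2 fold changes of all genes.

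Slc16a3 encodes MCT4, a lactate transporter typical of glycolytic cells and regarded as the exporter of Sertoli cells (ENSMUSG00000025161, chr11:120838846-120851694, plus strand). It was at 34.3, 29.6, 29.2 and 28.3 CPM in wild-type and at 31.2, 23.6 and 29.3 CPM in mutant testes. Mutant 2 was the lowest library and wild type 1 the highest, and mutants 1 and 4 lay within the wild-type range. Without mutant 2 the change was -0.00164. The log2 fold change was -0.12 (95% interval -0.33 to 0.09, limma FDR 0.287), and -0.26 after scaling (limma FDR 0.0377). The upper bound of 0.09 lies below the median change of all genes. Of the exon bases annotated to Slc16a3, 40.1% lie over exons of Csnk1d on the opposite strand and 4% over exons of Ccdc57. The strand setting of the counting is not given in the sources used here. The level, length-corrected rank and change of Slc16a3, and its ratios to other genes and to marker sums, are therefore uncertain.

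Slc16a7 encodes MCT2, a high-affinity carrier that takes lactate and pyruvate into spermatids and sperm (ENSMUSG00000020102, chr10:125055129-125225463, minus strand). It was at 565, 625, 574 and 611 CPM in wild-type and at 485, 511 and 489 CPM in mutant testes. All mutants lay below all wild-type mice. The change was -0.26 (standard error 0.04, limma FDR 0.000207), -0.38 relative to all genes and -0.40 after scaling.

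Bsg encodes basigin, the common partner of MCT1 and MCT4, without which male mice are infertile (ENSMUSG00000023175, chr10:79540143-79547821, plus strand). It was at 569, 576, 537 and 558 CPM in wild-type and at 558, 531 and 526 CPM in mutant testes. Mutant 1 lay within the wild-type range and mutants 2 and 4 just below it. The change was -0.06 (95% interval -0.14 to 0.03, limma FDR 0.23), or -0.18 relative to all genes. After scaling Bsg was called lower, at -0.19 (limma FDR 0.00245).

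Emb encodes embigin, the other partner, known to escort MCT2 (ENSMUSG00000021728, chr13:117345072-117414817, plus strand). Its wild-type values of 37.1, 36.4, 36.8 and 35.8 CPM had the smallest spread of the 8 genes relative to their mean. Its mutant values were 51.4, 57.4 and 56.6 CPM, all above the wild type. Emb rose by 0.59 on the log2 scale (limma FDR 1.2e-06, standard error 0.05), 0.47 above the median of all genes and 0.46 after scaling. Emb and Slc16a7, partner and transporter, were called in opposite directions.

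**Figure D3:**
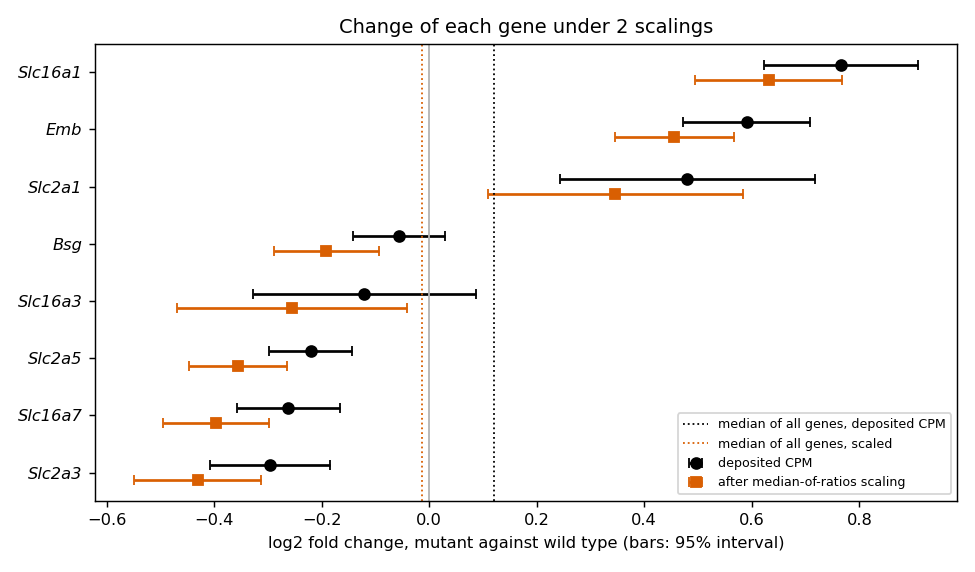
Log2 fold change of each gene, mutant against wild type, with 95% intervals, on the deposited CPM (black) and after median-of-ratios scaling (orange), with dotted lines at the median of all genes under each scaling. Slc16a1, Emb and Slc2a1 lie to the right of the dotted line of their colour and the other 5 genes to the left of it.

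The question of Sertoli export against germ-cell import was put to ratios between pairs of genes within each library, which no scaling of libraries can change. The log2 ratio of Slc16a3 to Slc16a7 was -4.04, -4.40, -4.29 and -4.43 in wild type 1 to 4 and -3.95, -4.43 and -4.06 in mutants 1, 2 and 4. Its means of -4.29 ± 0.18 and -4.15 ± 0.25 differed by 0.14, less than the SD of either genotype, but the difference was 0.28 without mutant 2, 0.22 without wild type 1 and 0.05 without mutant 1. With Slc16a1 in place of Slc16a3 the log2 ratio to Slc16a7 was -4.17 ± 0.15 in wild type and -3.15 ± 0.11 in mutants, a difference of 1.03 or 2.04-fold, and the groups did not overlap.

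Slc16a3 and Slc16a1 had nearly equal CPM in the wild type, with a log2 ratio from -0.22 to -0.01. In the mutants it was -0.71, -1.27 and -1.02, a difference of -0.89, so that Slc16a3 stood at 0.541 of its wild-type proportion to Slc16a1. For the hexose transporters, the log2 ratio of Slc2a1 to Slc2a3 was -7.46 to -7.08 in the wild type and -6.51 to -6.35 in mutants, a difference of 0.78. Slc2a5 to Slc2a3, the fructose against the glucose transporter of late germ cells, was -0.87 ± 0.11 and -0.79 ± 0.08, and the groups overlapped. For the partners, Emb to Bsg was -3.98 to -3.86 in the wild type and -3.44, -3.21 and -3.21 in mutants, a difference of 0.65. These ratios are given as descriptions with no test.

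**Figure D4:**
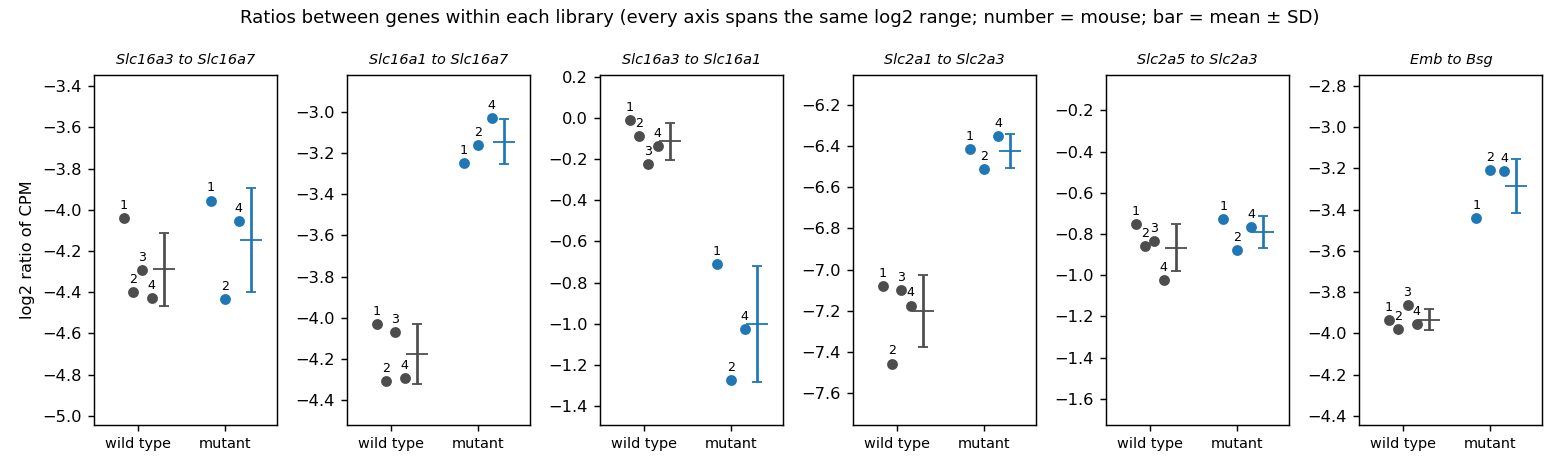
Log2 ratio of the CPM of the first to the second gene of each pair in each library, for wild-type (grey) and mutant (blue) samples, with the number of the sample and bars for the mean ± SD; every axis spans the same range. Mutants and wild type are apart for Slc16a1 to Slc16a7, Slc16a3 to Slc16a1, Slc2a1 to Slc2a3 and Emb to Bsg and overlap in the other pairs.

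In whole testis, fewer cells of a type and less RNA per cell cannot be told apart, and markers of several cell types moved with the 8 genes. All 11 Sertoli cell markers in the table were called higher, with a median log2 fold change of 0.81, and their summed level was 1299 to 1418 CPM in wild-type and 2676 to 2799 CPM in mutant libraries. Clu, a secreted chaperone abundant in Sertoli cells, rose from 851 ± 39.3 to 1816 ± 56.9 CPM, and Trf, the iron carrier transferrin, changed most, by 1.18 (limma FDR 2.3e-06). Fshr was not analysed here. All 8 elongating spermatid markers were called lower (median -0.61), with a summed level of 24525 to 26009 CPM in wild-type and 15755 to 17991 CPM in mutant libraries, and Tnp1, a transition protein, changed most, by -0.68, and Prm2, a protamine, was at 6134 ± 395 and 4041 ± 357 CPM. Of the 8 round spermatid markers, 6 were called lower (median -0.24), with a summed level of 1336 to 1458 CPM in the wild type and 1122 to 1235 CPM in mutants, with Spata25 at -0.43 and Tssk2, a spermatid kinase, at -0.34.

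Each of the 8 genes was set against some of these sums within each library, as log2 ratios with no test. Slc2a1, Slc16a1, Slc16a3 and Emb were set against the Sertoli sum only, and Slc2a3, Slc2a5 and Slc16a7 against the spermatid sums only. Bsg was set against all of them. Sums of other cell types were not used. Against the round spermatid markers, Slc2a3, Slc2a5 and Slc16a7 differed between mutants and wild type by -0.03, 0.04 and -0.000306, less than their SDs, and the groups overlapped. Against the elongating spermatid markers they were higher in mutants, by 0.30, 0.38 and 0.34 on the log2 scale, without overlap. Against the Sertoli markers, Slc16a3 was at -5.49 ± 0.12 in wild type and -6.61 ± 0.25 in mutants, a difference of -1.12 without overlap. Bsg differed by -1.06 from the Sertoli markers, by 0.21 from the round and by 0.54 from the elongating spermatid markers, each without overlap. Slc2a1 and Emb, although higher in CPM, were lower against these markers by differences of -0.52 and -0.41, without overlap, and Slc16a1 overlapped at -0.23. Clu made up 62.5% of the Sertoli sum in wild type and 66.8% in mutants. Without Clu the differences were -0.95 for Slc16a3, -0.88 for Bsg, -0.35 for Slc2a1 and -0.24 for Emb, still without overlap, and -0.06 for Slc16a1. Without Tssk2, the most abundant round spermatid marker, Slc2a3, Slc2a5 and Slc16a7 differed by -0.08, -0.00249 and -0.04, again with overlap. These pairs of gene and marker list, and the sums without these genes, were chosen after the values were seen, and the part of these markers in the 8 genes' changes was not tested.

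Other marker lists moved too. Of Leydig cell markers, 7 of 8 were called higher (median 1.64, summed level 1132 to 1345 CPM in the wild type and 4709 to 4853 CPM in mutants), among them Insl3, a hormone of Leydig cells, at 438 ± 15.7 and 2941 ± 37.6 CPM, and Hsd3b1, a steroid-synthesis enzyme, with a change of 3.21. All 9 macrophage markers were called higher (median 1.80, summed 94.8 to 105 CPM and 293 to 332 CPM), with Lyz2, lysozyme, at a change of 2.34. Of 5 endothelial markers, whose cells also use GLUT1, 2 were called higher (median 0.63, summed 30.6 to 34.5 CPM and 44.0 to 46.4 CPM), with Kdr, a VEGF receptor, at 1.81, while Vwf was at -0.21 and not called, and after scaling at -0.35 and called lower (limma FDR 0.000561). Of 5 peritubular myoid markers 1 was called higher, Des at 0.61, and 1 lower, Actg2 at -0.44 (summed 346 to 419 CPM and 286 to 326 CPM), and without mutant 4 there were 2 higher. Actg2, at 299 ± 20.9 and 221 ± 15.5 CPM, made up most of this sum, so that the sum follows this gene. No other gene of the list had a mean above 51.1 CPM in either genotype. None of the 4 red blood cell markers was called by limma, although 3 had an unadjusted p below 0.05 (median 0.25, summed 31.9 to 47.0 CPM and 36.4 to 49.4 CPM, limma FDR 0.0555 for Alas2). Of 7 spermatogonia markers 4 were called higher (median 0.30, summed 117 to 129 CPM and 167 to 196 CPM), with Kit at 1.5 and Uchl1 at 0.29. This count was 1 after scaling, where Uchl1 was not called (limma FDR 0.0843), 1 without mutant 2 or wild type 2, and 2 without mutant 4 or wild type 3. Kit, at 21.7 ± 2.49 and 62.2 ± 11.1 CPM, held much of the rise of the summed level of this list. Of 8 spermatocyte markers 1 was called higher, Spo11 at 0.27, and 1 lower (median -0.03, summed 1159 to 1183 CPM and 1086 to 1160 CPM). After scaling 4 were lower, among them Piwil1 at -0.20, and Spo11 was not called (0.14, limma FDR 0.0768). Spo11 was not called either without mutant 2, mutant 4 or wild type 1 (limma FDR 0.0212, 0.0108 and 0.0109), and without wild type 4 there were 3 lower.

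**Figure D5:**
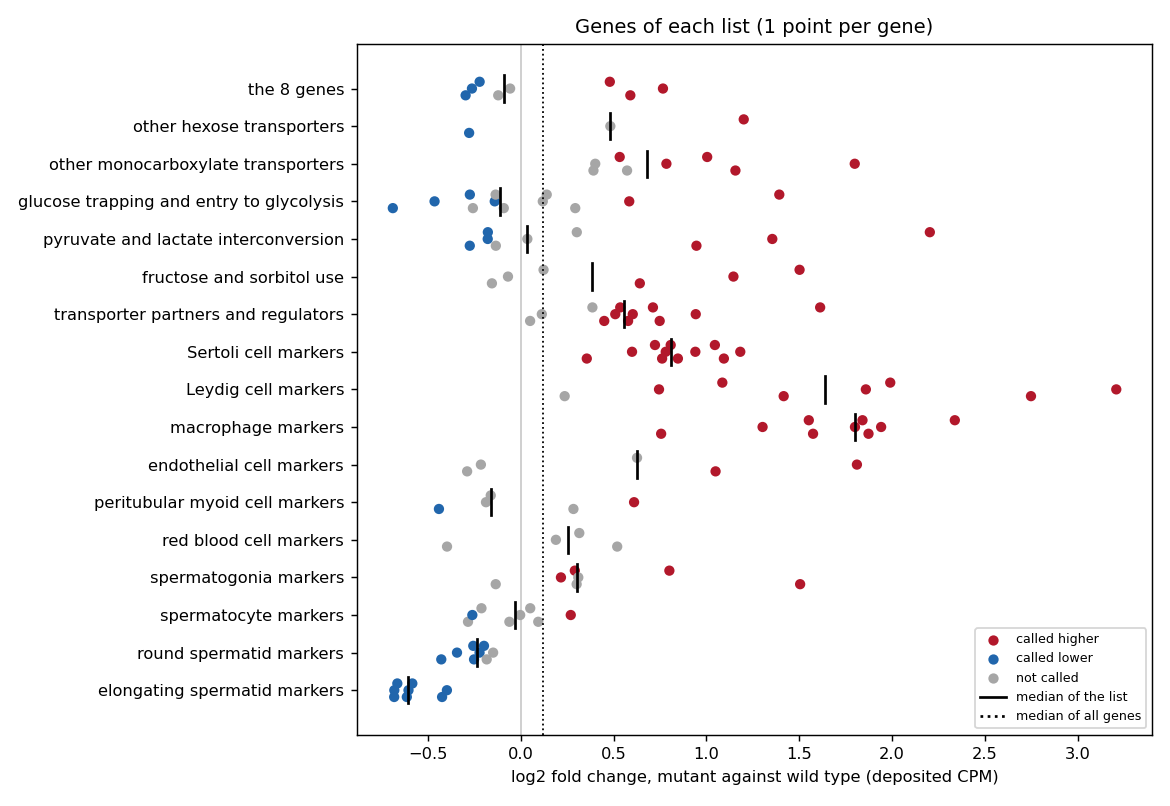
Log2 fold change of every gene of each list on the deposited CPM (red, called higher; blue, called lower; grey, not called), with a black bar at the list's median and a dotted line at the median of all genes, 0.12. The 8 genes divide into 3 red, 3 blue and 2 grey points, Sertoli, Leydig and macrophage markers lie to the right of the dotted line and spermatid markers to the left.

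Further genes of hexose and lactate transport and use were counted in 6 lists. Of 50 genes in the table, 23 were called higher and 8 lower, where 36.3% and 14.2% of all genes were, and after scaling 21 and 13, where 27% and 25.1% of all genes were. Without mutant 4 the count of lower genes was 4. Of 3 other hexose transporters (median 0.48), Slc50a1, a sugar carrier of the SWEET family, was called higher at 2.57 ± 0.44 and 6.10 ± 1.55 CPM, a change of 1.20 (limma FDR 7.6e-05). Slc2a8, the most abundant of them, was called lower at 48.3 ± 2.22 and 39.8 ± 1.49 CPM, a change of -0.28 (limma FDR 0.000758). Their summed level was 51.6 to 57.5 CPM in wild-type and 48.5 to 53.0 CPM in mutant libraries. Of 8 other Slc16a genes 5 were called higher and the other 3 were not called, with a median change of 0.68. Slc16a13 rose most, from 1.81 to 2.30 CPM in the wild type to 6.42 to 8.68 CPM in mutants (change 1.80, limma FDR 3.9e-07), followed by its neighbour Slc16a11 (1.16), Slc16a9 (1.00) and Slc16a6 (0.78). All 8 were at 11.5 CPM or less in every library, far below Slc16a7.

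Enzymes that trap and commit glucose were called higher in 2 and lower in 4 of 12 cases (median -0.11). Lower were 7 after scaling, 1 without mutant 4 and 2 without mutant 2, wild type 1 or wild type 2. The summed level of the list was 2841 to 3052 CPM in wild-type and 2276 to 2483 CPM in mutant libraries. Hk1, its most abundant gene, was called lower, at 2007 ± 59.1 and 1457 ± 98.8 CPM (change -0.46, limma FDR 2.9e-06). Pfkl, the liver form of phosphofructokinase, rose from 21.4 ± 1.94 to 56.1 ± 2.54 CPM (change 1.39, limma FDR 1.2e-08) and Hk2, a hexokinase, changed by 0.58 (limma FDR 9.7e-06), whereas Hk3 fell by 0.69 on the log2 scale (limma FDR 0.00217), a call lost without mutant 4 (limma FDR 0.0113). Among 9 genes that interconvert or import pyruvate and lactate, 3 were called higher and 3 lower (median 0.04). Their summed level was 5350 to 5593 CPM in wild-type and 4762 to 4860 CPM in mutant libraries. The 3 lower were Ldhc, the most abundant of the list, at 3574 ± 69.6 and 2956 ± 34.0 CPM (change -0.27, limma FDR 2.0e-05), Ldha (-0.18) and Pdha2 (-0.18). Ldhd, the mitochondrial D-lactate dehydrogenase, rose from 8.31 ± 0.68 to 38.6 ± 3.97 CPM (change 2.2, limma FDR 1.7e-09), Pdha1, a subunit of pyruvate dehydrogenase in somatic cells, by 1.35 and Ldhb, the heart form of lactate dehydrogenase, from 66.5 ± 4.04 to 128 ± 7.89 CPM (change 0.95).

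Genes of fructose and sorbitol use were called higher in 3 of 6 cases and the other 3 were not called (median 0.38), of which 1 was called lower after scaling, and 1 lower was also counted without mutant 2 or wild type 3. Khk, fructokinase, rose from 4.46 ± 0.64 to 12.8 ± 1.37 CPM (change 1.5, limma FDR 5.9e-07), while the fructose transporter Slc2a5 fell. Aldoc, an aldolase, rose from 8.97 ± 1.05 to 20.0 ± 2.37 CPM and Akr1b1, aldose reductase, by 0.64. Of 12 partners and regulators of these transporters 9 were called higher and the other 3 were not called (median 0.56). Txnip, which removes GLUT1 from the cell surface, rose from 67.3 ± 3.72 to 206 ± 7.76 CPM (change 1.61, limma FDR 2.4e-10). Akt1, a kinase of insulin signalling, changed by 0.94, Igf1r, the receptor of insulin-like growth factor, by 0.75, and Hif1a, the oxygen-regulated transcription factor, by 0.71 (limma FDR 5.4e-07).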

How the data were processed

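RNA-seq libraries of whole testis were compared between 4 wild-type and 3 Iqch mutant males. The authors used Trimmomatic to trim, Subread to map to GRCm39 and featureCounts to count per gene; a gene stayed in if 2 or more samples of 1 genotype had 75 reads or above. The strand setting and annotation release are not given in the sources used here. The authors deposited CPM, with values that sum to 1000000 per library over 17127 genes. All values (100%, tolerance 0.01 reads) were whole multiples of 1 step, taken as 1 read. Depths bear on counting error only, and the 95% intervals are those of limma over the libraries.

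Differences were tested in R 4.3.3 with limma 3.58.1 (eBayes with a trend) on log2(CPM + 0.1). The 17126 genes tested reached 2.2 CPM in no fewer than 2 libraries of 1 genotype, with Benjamini-Hochberg adjustment over all of them and a threshold of 0.01; fold changes on this scale understate changes of low genes. The fit was tested on simulated data in which few genes changed, up or down with equal odds. That setting cannot check how uneven changes over many genes affect CPM. Symbols, coordinates and exon lengths came from GENCODE M39 on GRCm39 (17045 genes found, 82 not), and promoters from RefSeq on GRCm38.p6. The 8 genes and all lists were chosen with earlier results of these data known. Named were the 8 genes, Iqch, up to 4 called genes of each pathway list with a log2 change of at least 0.5, and of each marker list the most abundant gene or the called gene with the largest change. Hk1, Ldhc, Ldha, Pdha2 and Slc2a8 were named outside this rule, since its threshold of 0.5 left them out. Alternatives were median-of-ratios scaling, pseudocounts of 1 and 0.01, a CPM minimum of 5 or none, a replicate block, leaving out each library and, for levels per length, the longest transcript. Other computations used Python 3.11.15, pandas 2.3.3, NumPy 2.4.6 and matplotlib 3.10.9.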

Additional observations from a re-analysis of the deposited data

Results flagged for a closer look

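Only 1 of the 51 sets of 4 wild-type values examined (the 8 genes, Iqch, the other genes named by the rule above and the 6 ratios) had a library that stood apart by Dixon's criterion, where chance flags about 1 in 20. It was Vwf, an endothelial marker, at 18.96 CPM in wild type 4 while wild types 1 to 3 were at 18.10 to 18.12 CPM. None of the 8 transporter and partner genes and none of their ratios stood apart in this way.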

How the results depend on the processing

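Called genes among the 8 kept their direction under each alternative run, and 2 calls turned on the scaling. After median-of-ratios scaling Slc2a1 was at 0.35 and not called, and Bsg was at -0.19 and called lower, so that 2 of the 8 genes were higher and 4 lower in place of 3 and 3. Under the same scaling the lists of other genes held 13 lower genes in place of 8, and without mutant 4 they held 4. With each library left out in turn, log2 fold changes ran from 0.38 to 0.54 for Slc2a1, -0.33 to -0.25 for Slc2a3, -0.23 to -0.21 for Slc2a5, 0.72 to 0.83 for Slc16a1, -0.29 to -0.24 for Slc16a7, -0.08 to -0.04 for Bsg and 0.56 to 0.64 for Emb. For Slc16a3 they ran from -0.20 to -0.00164, the latter without mutant 2. The replicate numbers are shared between genotypes. Deviations of same-numbered libraries from their group means correlated at 0.03, 0.01 and -0.10. These values are too few to settle whether same-numbered libraries share more than a number. With a replicate block, which leaves wild type 3 without weight, 7722 of all genes were called in place of 8640, and the 8 genes kept their calls (Slc2a1 at 0.51, Slc16a3 at -0.14, Bsg at -0.08). A count test on reads recovered from the CPM was not run, since too few values lie near 1 read to check them. Differences under 0.1 on the log2 scale, as for Bsg, are near the standard errors of 3 against 4 libraries.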
